A study of Homo sapiens with 6 samples.

Results

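The expression of 10 genes that carry, store, release or sense iron inside cells was examined in H1975 cells before and after adaptation to Osimertinib (Osi): NCOA4, FTH1, FTL, TFRC, STEAP3, SLC11A2, SLC40A1, IREB2, ACO1 and FBXL5. They were taken by gene symbol from a table of 27216 rows, and all 10 were in it. H1975 is an established line of human non-small cell lung cancer that carries mutant EGFR, and Osi is a tyrosine kinase inhibitor of EGFR. The 3 parental samples are labelled as 0 h of Osi, and the 3 adapted samples were the cells that remained after 72 h in Osi at 1000 nM, once apoptotic cells had been washed away. The dose is that of the labels and of some culture assays in the study's methods, whereas the study's own list of compounds gives a lower one. All 6 samples are given as wild type in genotype, although the line itself carries mutant EGFR. They came from 1 line in culture, with no other agent named for the adapted cells. The table names the parental columns after DMSO, the solvent. The series is described as DMSO or Osi for 0 or 72 h, which does not say at which of these times the DMSO cells were taken, so that Osi and time in culture cannot be told apart. The labels do not say that the replicates were separate cultures, so p-values measure the spread between these samples, which may be technical. The labels also describe a digestion with RNase R, an enzyme that removes linear RNA, which the methods of the study do not name.

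Iron enters cells bound to transferrin through the transferrin receptor TFRC, is reduced in the endosome by STEAP3 and passes to the cytosol through SLC11A2. What is not used is stored in ferritin, a shell of FTH1 and FTL subunits, from which it is recovered when NCOA4 carries ferritin to the lysosome (ferritinophagy), or it leaves the cell through ferroportin, SLC40A1. The cytosolic iron level is read by the iron regulatory proteins IRP1 (ACO1) and IRP2 (IREB2), which bind a short hairpin in mRNA, the iron-responsive element (IRE), when iron is low, and FBXL5 marks IRP2 for degradation when iron is high. A hairpin in the 5′ UTR lets the bound protein block translation and one in the 3′ UTR protects the mRNA from decay, so the mRNA level of ferritin or ferroportin is not a measure of its protein.

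The hairpins are shown because they tie the 2 ferritin subunits, the exporter and the receptor to the same sensors. UTRs of GENCODE v29 transcripts (GRCh38) were searched on the transcribed strand for CNNNNNCAGTGN followed by 5 bases able to pair, as G-C, A-T or G-T, with the 5 bases between the first C and the loop. Capitals mark the 6 bases of the loop, written as DNA.

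FTH1, 5′ UTR, chr11:61967574-61967602, minus strand: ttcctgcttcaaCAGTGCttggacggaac
FTL, 5′ UTR, chr19:48965335-48965363, plus strand: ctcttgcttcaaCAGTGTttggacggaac
SLC40A1, 5′ UTR, chr2:189580661-189580689, minus strand: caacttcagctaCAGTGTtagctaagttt
TFRC, 3′ UTR, chr3:196050979-196051007, minus strand: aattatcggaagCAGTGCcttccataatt
TFRC, 3′ UTR, chr3:196050575-196050603, minus strand: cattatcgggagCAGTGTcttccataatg
TFRC, 3′ UTR, chr3:196050510-196050538, minus strand: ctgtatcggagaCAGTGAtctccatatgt
TFRC, 3′ UTR, chr3:196050463-196050491, minus strand: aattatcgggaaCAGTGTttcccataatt

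The FTH1 and FTL elements were identical at 26 of 29 positions, while that of SLC40A1 matched FTH1 at 13 and FTL at 14. The 4 TFRC elements found by this search lay within 545 bases of one another. The FTH1 element was in 7 of 8 coding transcripts of its gene and the SLC40A1 element in 1 of 5. These letters were found in the 5′ UTR of 3 of the 10 genes and the 3′ UTR of 1, against 0.183% and 0.672% of all 19644 protein-coding genes. The 10 genes were chosen for iron handling, and the hairpin was known in some of them, so the contrast is no test. Among the further iron genes examined, ALAS2 held a match in its 5′ UTR, and CDC14A and TF in the 3′ UTR. The UTRs of SLC11A2 held no match to these letters, and nor did those of EPAS1 and CDC42BPA, which are known for other IREs. The search thus misses some IREs, so the lack of a match does not mean that a gene lacks one. A match is a description of sequence, not of binding.

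The table holds 1 value per gene and sample as log2(x + 1). The unit of x is not named and was taken as FPKM, a fragment count divided by the length of the transcript and by the size of the library, and the depth of each sample is unknown. FPKM summed to between 375342 and 387753 per sample, and the genes encoded in mitochondrial DNA took 8.07% to 8.66% of it in parental and 9.73% to 12.2% in adapted samples. Across all rows, parental samples correlated with each other at r = 0.997, adapted replicate 1 with the other adapted samples at 0.991 and adapted replicates 2 and 3 with each other at 0.996. With the parental samples, adapted replicate 1 correlated at 0.9725 to 0.9727 and adapted replicates 2 and 3 at 0.9632 to 0.9636. The median SD of a row was 0.058 in parental and 0.13 in adapted samples on the log2 scale. All 5 epithelial markers (EPCAM, KRT8, KRT18, KRT19 and CDH1) were expressed, with a summed FPKM of 3044 to 3071 in parental and 2145 to 2295 in adapted samples. The keratins KRT8, KRT18 and KRT19 fell from means of 904, 853 and 936 to 748, 579 and 556 FPKM. The mean of EPCAM went from 193 to 175 FPKM and that of CDH1 from 175 to 179 FPKM. Of 12 markers of other cell types, CD3E, ALB, HBA1, HBA2 and HBB were at 0 in all samples and 2, CD68 and COL1A1, averaged at least 1 on the log2 scale, and the list summed to 78.5 to 80.7 FPKM in parental and 23.6 to 36.7 in adapted samples. Most of that sum was CD68, which fell from a mean of 75.0 to 21.0 FPKM, whereas COL1A1 rose from 3.06 to 7.86 FPKM. The part of these differences in the results for iron genes was not tested, and in bulk RNA fewer cells that express a gene and less of its RNA per cell cannot be told apart.

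Of the 10 genes, 3 rose in adapted cells (NCOA4, STEAP3 and SLC40A1), 3 fell (FTH1, IREB2 and FBXL5) and 4 (FTL, TFRC, SLC11A2 and ACO1) did not pass an adjusted p of 0.05 in limma's test. Over all 12656 rows tested the same threshold called 56.9%, with 30.7% higher and 26.2% lower in adapted cells, so a count of 6 in 10 is near the background and the results below are about each gene. The median log2 fold change was -0.18 over the 10 genes and 0.028 over all rows tested. Values of the 2 groups did not overlap for 7 of the 10 genes and for 66.3% of all rows tested. All log2 fold changes are those of FPKM + 1, and the added 1 makes the change of a low gene look smaller than it is.

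**Figure D1:**
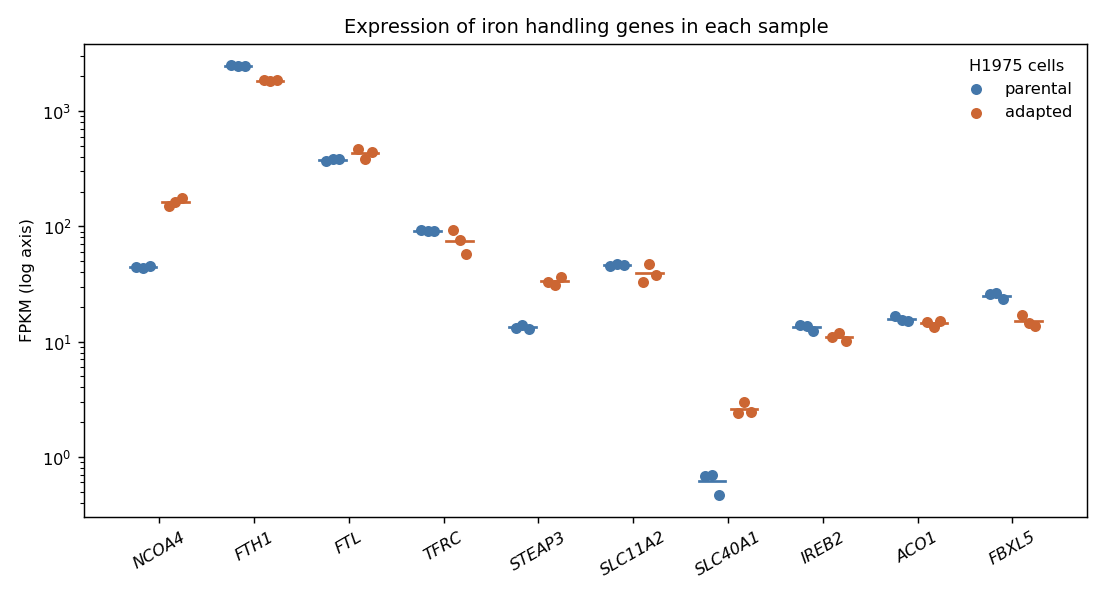
FPKM of the 10 genes (log axis) in the 3 parental (blue) and 3 adapted (orange) samples; each point is a sample and each line the mean of its group. FTH1 is the highest of the 10 in every sample and SLC40A1 the lowest, and the groups are clearly apart for NCOA4, STEAP3, SLC40A1, FTH1 and FBXL5.

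NCOA4, the receptor that hands ferritin to the autophagosome (chr10:46005088-46030714, minus strand), was at 44.6, 43.4 and 45.5 FPKM in the parental samples and at 149, 162 and 174 FPKM in the adapted samples. Every adapted sample was more than 100 FPKM above every parental one. The mean went from 44.5 ± 1.02 to 162 ± 12.8 FPKM (SD, n = 3 each), 3.64 times the parental level, and the log2 fold change was 1.84 (SE 0.072, 95% interval 1.67 to 2.01, limma adjusted p = 3.59e-06). NCOA4 ranked 156th in rise among the rows tested, and 2.67% of the rows changed by more in either direction. Among all rows by FPKM it moved from rank 1412 in parental to rank 274 in adapted cells. An exact two-sided permutation test of NCOA4 alone gave p = 0.1, the smallest that 3 samples against 3 allow.

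FTH1, the heavy subunit of ferritin that oxidizes iron as it enters the shell (chr11:61959718-61967660, minus strand), was at 2479, 2445 and 2433 FPKM in parental and 1844, 1803 and 1846 FPKM in adapted samples. All adapted samples lay below all parental ones, and both groups were tight. FTH1 fell to 74.7% of its parental level, from 2452 ± 23.8 to 1831 ± 24.2 FPKM (SD, n = 3 each), with a log2 fold change of -0.42 (SE 0.083, 95% interval -0.62 to -0.23, limma adjusted p = 0.0040). It remained 1 of the most abundant transcripts, at rank 7 in parental and rank 15 in adapted cells. Without the filter on low rows its call was lost (limma adjusted p = 0.0684, against a range of 8.67e-04 to 0.0684 over the alternatives).

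FTL, the light subunit that helps the iron core form (chr19:48965301-48966878, plus strand), was at 367, 380 and 384 FPKM in parental and 471, 384 and 444 FPKM in adapted samples. Adapted replicate 2 was level with the highest parental sample and the other adapted samples were above it. FTL averaged 377 ± 9.09 FPKM in parental and 433 ± 44.6 FPKM in adapted cells (SD, n = 3 each), with a log2 fold change of 0.19 (SE 0.090, 95% interval -0.016 to 0.40, limma adjusted p = 0.101). It passed the threshold without adapted replicate 2 (0.28, adjusted p = 0.0185), after quantile normalization (adjusted p = 0.0167) and when samples were rescaled to 1 sum that left out mitochondrially encoded genes (adjusted p = 0.0455), within a range of 0.0167 to 0.244 over the alternatives.

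Ratios within a sample do not depend on how samples were scaled to each other, and they compare levels per length. Per 1000 FPKM of FTH1 there were 18.0, 17.8 and 18.7 FPKM of NCOA4 in parental and 80.7, 90.1 and 94.4 in adapted samples. The groups lay far apart, and the mean ratio in adapted cells was 4.87 times that in parental cells. Per 100 FPKM of FTH1 there were 14.8, 15.6 and 15.8 FPKM of FTL in parental and 25.6, 21.3 and 24.1 in adapted samples, again with no overlap and a mean 1.54 times higher. The mRNAs of the 2 ferritin subunits therefore changed unequally in these samples, which was not tested.

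**Figure D2:**
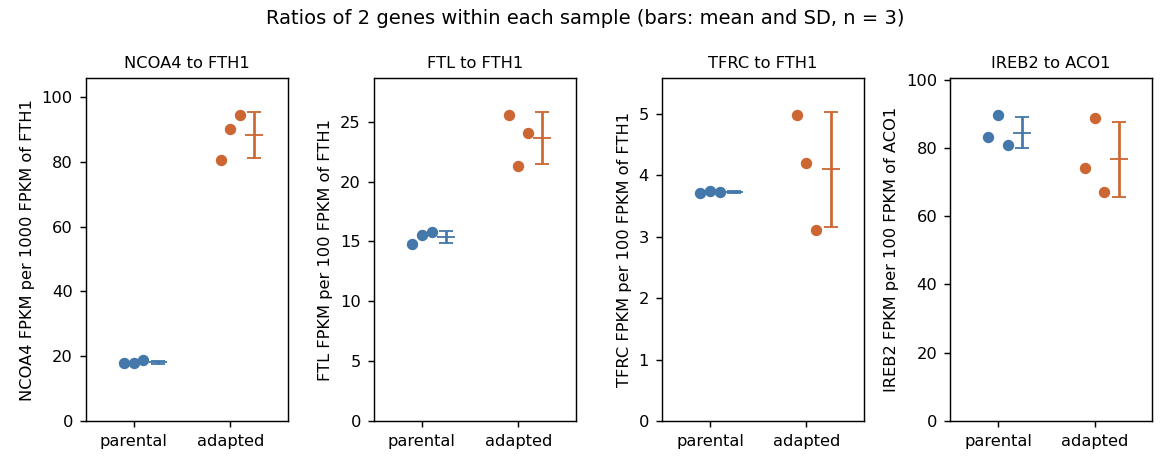
Ratio of 2 genes' FPKM within each of the 3 parental and 3 adapted samples (points), with the mean and SD of each group beside them. NCOA4 to FTH1 and FTL to FTH1 are higher in all 3 adapted samples than in all parental samples, whereas TFRC to FTH1 and IREB2 to ACO1 overlap between groups.

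FTH1 and FTL have many processed copies in the genome. GENCODE v29 names 25 FTH1, 16 FTL and 3 NCOA4 pseudogenes, none of which has a row in the table, and how reads shared with them were counted is not given in the sources used here, so the 3 levels are uncertain to that extent. Exons of FTH1 also overlap those of BEST1, a chloride channel gene on the opposite strand, whose log2 values were 4.92, 4.92 and 4.90 in parental and 4.24, 4.17 and 1.54 in adapted samples. BEST1 was far lower in adapted replicate 3 than in the other samples, while FTH1 was not. Whether counting used strand is not stated, and reads of the 2 genes in their overlap cannot then be told apart.

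TFRC (chr3:196027183-196082189, minus strand), the receptor of iron-loaded transferrin, was at 92.1, 91.5 and 90.7 FPKM in parental and 91.9, 75.8 and 57.4 FPKM in adapted samples. Adapted replicate 1 was level with the parental samples, whereas the other adapted samples were below them. Its coefficient of variation was 0.76% in parental and 23.0% in adapted cells, and its log2 fold change of -0.31 (SE 0.15, 95% interval -0.67 to 0.051, limma adjusted p = 0.123) did not pass the threshold. Without adapted replicate 1 it was -0.46 (adjusted p = 0.0070) and without adapted replicate 3 it was -0.13, with adjusted p between 0.0070 and 0.261 over the alternatives. Per 100 FPKM of FTH1, TFRC stood at 3.72, 3.74 and 3.73 in parental and 4.98, 4.20 and 3.11 in adapted samples, on both sides of the parental value.

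STEAP3, the endosomal ferrireductase (chr2:119223831-119265652, plus strand), was at 13.2, 14.0 and 12.8 FPKM in parental and 32.6, 30.8 and 36.1 FPKM in adapted samples. The adapted samples were all above the parental ones by a wide margin. STEAP3 rose to 2.49 times its parental level, with a log2 fold change of 1.25 (SE 0.076, 95% interval 1.07 to 1.43, limma adjusted p = 2.00e-05). The antisense gene STEAP3-AS1 overlaps its exons and has no row in the table.

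SLC11A2 (chr12:50979401-51028566, minus strand), also called DMT1, which moves ferrous iron out of the endosome, was at 45.4, 46.7 and 46.5 FPKM in parental and 33.1, 47.2 and 38.1 FPKM in adapted samples. Adapted replicate 2 was at the parental level and the other adapted samples were below it. The log2 fold change was -0.24 (SE 0.12, 95% interval -0.51 to 0.045, limma adjusted p = 0.129). Without adapted replicate 2 it was -0.37 (adjusted p = 0.0094) and without adapted replicate 1 it was -0.12, with adjusted p between 0.0094 and 0.261 over the alternatives. The size of the difference in SLC11A2 and in TFRC thus rested on single adapted samples.

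SLC40A1, the ferroportin gene and the exporter of iron (chr2:189560579-189583758, minus strand), was at 0.681, 0.693 and 0.465 FPKM in parental and 2.39, 3.01 and 2.44 FPKM in adapted samples. It was low throughout, and every adapted sample was above every parental one. SLC40A1 rose to 4.27 times its parental FPKM, a log2 fold change of 1.16 (SE 0.11, 95% interval 0.91 to 1.42, limma adjusted p = 1.26e-04). Its mean log2 value was 0.69 in parental and 1.85 in adapted samples. It therefore passed the filter on low rows, a mean of at least 1, only through the adapted group. Without the filter its limma adjusted p was 6.48e-04. With 0.1 in place of 1 added before the log, the fold change was 1.94. Even in adapted cells its level was far under that of TFRC and SLC11A2, the genes of the uptake route.

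**Figure D3:**
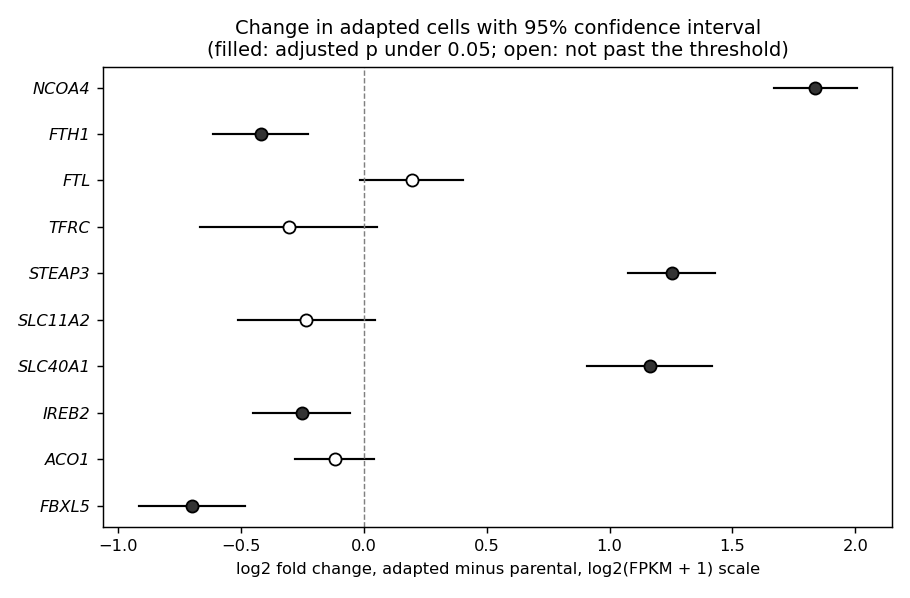
Log2 fold change of each gene, adapted minus parental, on the log2(FPKM + 1) scale, with its 95% confidence interval from limma; filled points passed an adjusted p of 0.05 and open points did not. NCOA4, STEAP3 and SLC40A1 are above 0 by more than 1, FBXL5 is lowest at -0.70, and the intervals of FTL, TFRC, SLC11A2 and ACO1 include 0.

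FBXL5, the subunit of a ubiquitin ligase that recognizes IRP2 in iron-replete cells (chr4:15604539-15681679, minus strand), was at 25.7, 26.1 and 23.2 FPKM in parental and 17.0, 14.3 and 13.8 FPKM in adapted samples. No adapted sample reached the lowest parental one. FBXL5 fell to 60.2% of its parental level, with a log2 fold change of -0.70 (SE 0.092, 95% interval -0.92 to -0.48, limma adjusted p = 5.92e-04). FAM200B on the opposite strand shares exon sequence with FBXL5 and was higher in adapted samples, at log2 values of 2.34, 2.27 and 2.18 in parental and 2.88, 2.78 and 2.77 in adapted samples. If counting did not use strand, reads of the 2 genes in their overlap cannot be told apart. The part of this overlap in the values of FBXL5 was not tested.

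IREB2, the mRNA of IRP2 (chr15:78437431-78501456, plus strand), was at 13.8, 13.7 and 12.2 FPKM in parental and 10.9, 12.0 and 10.0 FPKM in adapted samples. The groups did not overlap, but parental replicate 3 and adapted replicate 2 nearly met. IREB2 fell to 82.7% of its parental level, with a log2 fold change of -0.25 (SE 0.084, 95% interval -0.45 to -0.058, limma adjusted p = 0.034). This call was lost without parental replicate 1 (adjusted p = 0.116), parental replicate 2 (0.117) or adapted replicate 3 (0.0884), with no filter (0.0523) and after rescaling without mitochondrially encoded genes (0.0615), over a range of 0.0193 to 0.117.

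ACO1, which encodes IRP1, a cytosolic aconitase when it holds an iron-sulfur cluster (chr9:32384603-32454769, plus strand), was at 16.6, 15.3 and 15.2 FPKM in parental and 14.7, 13.5 and 15.0 FPKM in adapted samples. The adapted samples were all lower, by a margin smaller than the spread of either group. Its log2 fold change was -0.12 (SE 0.068, 95% interval -0.28 to 0.041, limma adjusted p = 0.171), and no alternative brought it past the threshold (-0.15 to -0.074). Per 100 FPKM of ACO1 there were 83.1, 89.6 and 80.7 FPKM of IREB2 in parental and 74.2, 88.7 and 67.1 in adapted samples, with overlap.

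The other genes of these routes were taken from 7 lists, of which 41 of 56 genes were tested. Of the 41, 11 rose, 13 fell and 17 did not pass the threshold, a share near the 56.9% called over all rows, and their median log2 fold change was 0.066, near that of all rows. HAMP, which encodes hepcidin, the hormone that removes ferroportin, and FTMT, mitochondrial ferritin, were at 0 in all samples.

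Among 7 tested genes of iron uptake and reduction, 2 rose, 3 fell and 2 did not pass, where 56.9% of all rows tested were called. STEAP1 and STEAP2, metalloreductases of the STEAP3 family, moved against STEAP3. STEAP1 was at 36.3, 35.1 and 38.4 FPKM in parental and 14.6, 20.7 and 19.3 in adapted samples (log2 fold change -0.99, limma adjusted p = 4.79e-04). STEAP2 was at 17.3, 17.8 and 16.2 FPKM in parental and 5.85, 6.25 and 5.87 in adapted samples (-1.37, adjusted p = 7.73e-06). Both were lower in every adapted sample, so that STEAP3, the lowest of the 3 in parental cells, was the highest in each adapted sample. STEAP4, at 0.747 to 1.55 FPKM in all samples, rose by 0.34 (adjusted p = 0.0257), a call lost without any 1 of the 3 parental samples. Its mean log2 value was 0.83 in parental and 1.17 in adapted samples. STEAP4 thus passed the filter at a mean of 1 only through the adapted group. MCOLN1, a lysosomal channel that releases iron, rose from 6.14, 6.31 and 5.95 to 11.0, 11.9 and 12.5 FPKM (0.84, adjusted p = 7.69e-05), and SLC39A8, a transporter of zinc, manganese and iron, fell by 0.41 on the log2 scale (adjusted p = 0.0070). SLC39A14 (0.028, adjusted p = 0.868) and LCN2 (-0.12, adjusted p = 0.456) did not pass, although LCN2, a siderophore carrier, stood above FTH1 in every sample at 3030 to 4043 FPKM. LCN2 passed after quantile normalization (-0.36, adjusted p = 0.0063) and was -0.018 without adapted replicate 2, and SLC39A14 was on either side of 0 with 1 adapted sample left out (-0.10 without replicate 1 and 0.17 without replicate 3).

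Of 8 tested genes that load ferritin with iron or carry it to degradation, 2 rose, 3 fell and 3 did not pass, against 56.9% called over all rows tested. PCBP1 and PCBP2, the iron chaperones of ferritin, both fell, with log2 fold changes of -0.29 (limma adjusted p = 0.0038 and 0.0072), PCBP1 from 148, 141 and 145 to 121, 114 and 119 FPKM, although PCBP2 lost its call after quantile normalization. PROM2, which has a role in the release of ferritin in vesicles, fell by 1.04 (adjusted p = 5.49e-04), and CD63, a tetraspanin of the same vesicles, rose by 0.26 (adjusted p = 0.0193), a call lost without parental replicate 2 (0.0870) or 3 (0.0641) and with the replicate number as a block (0.0565). HERC2, the ubiquitin ligase that turns over NCOA4 protein when iron is abundant, was at 7.32, 7.61 and 7.13 FPKM in parental and 10.4, 9.63 and 8.79 in adapted samples (0.34, adjusted p = 0.0070), higher in all adapted samples as NCOA4 was. TAX1BP1, ATG9A and RB1CC1, which act in the delivery of NCOA4 and ferritin to lysosomes, had log2 fold changes of 0.11, 0.14 and 0.071 and did not pass (adjusted p = 0.245, 0.135 and 0.506). Without adapted replicate 1, TAX1BP1 passed (0.18, adjusted p = 0.0085), and without adapted replicate 2 it was 0.070. ATG9A was 0.094 without adapted replicate 1, and RB1CC1 was between 0.0034 and 0.12 with 1 sample left out.

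**Figure D4:**
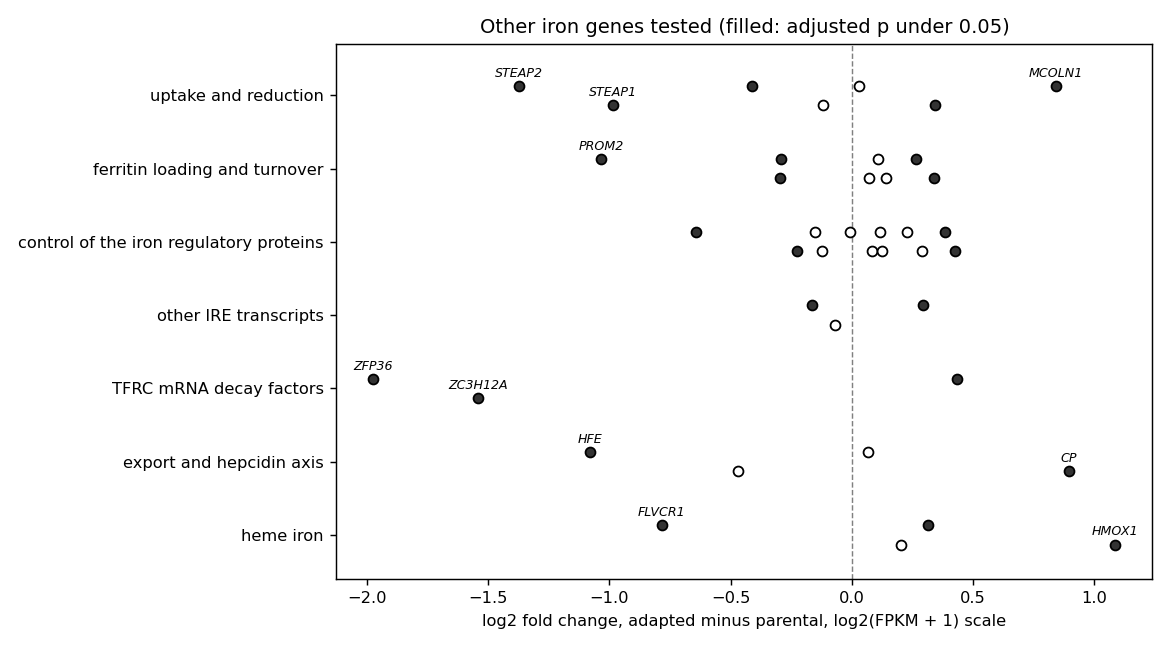
Log2 fold changes, adapted minus parental, of the 41 tested genes of 7 further lists of iron genes; each point is a gene, filled where its adjusted p was under 0.05, and genes that changed by more than 0.7 are named. Changes past the threshold lie on both sides of 0 in each of the 7 lists.

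Of 12 genes of the FBXL5 ligase and of cytosolic iron-sulfur cluster assembly, which loads IRP1, 2 rose (CIAPIN1 by 0.42, adjusted p = 0.0152, and CIAO3 by 0.38, adjusted p = 0.0059), 2 fell (CIAO2B, -0.64, limma adjusted p = 0.0131, and CIAO2A, -0.23, adjusted p = 0.0494) and 8 did not pass. The share called over all rows tested was 56.9%. CIAO2A, a targeting factor for the cluster of IRP1, lost its call in 10 of 19 alternatives. CIAPIN1 lost its call without parental replicate 1 (adjusted p = 0.0554). The ligase subunits SKP1 (0.29), CUL1 (-0.12) and RBX1 (-0.0070) were among the 8 that did not pass, and their difference from FBXL5 was not tested. Without adapted replicate 1, CUL1 passed (-0.18, adjusted p = 0.0153). SKP1 was 0.032 without adapted replicate 2 and 0.44 without adapted replicate 1.

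Of 3 tested transcripts known for other IREs, CDC42BPA rose by 0.29 (limma adjusted p = 0.0084), EPAS1, which encodes HIF-2α, fell by 0.16 (adjusted p = 0.0417, lost in 8 alternatives) and CDC14A did not pass (-0.069, adjusted p = 0.581). In 147 rows of the table the values of 1 group hold an added constant, and neither the 10 genes nor the 41 further genes are among them.

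Of 3 genes whose products are known to act in the decay of TFRC mRNA or of similar hairpin mRNAs, 2 fell and 1 rose, where 56.9% of all rows tested were called, so that the count itself says little. ZC3H12A, the endonuclease Regnase-1, was at 79.7, 75.3 and 76.0 FPKM in parental and 30.7, 23.8 and 23.5 in adapted samples (log2 fold change -1.54, limma adjusted p = 3.29e-05). ZFP36, a protein that destabilizes AU-rich mRNAs, was at 30.0, 31.8 and 30.0 FPKM in parental and 7.88, 5.87 and 7.54 in adapted samples (-1.97, adjusted p = 1.09e-05). Both were lower in every adapted sample, while RC3H1, Roquin-1, was higher in each (0.44, adjusted p = 0.0034), and TFRC itself did not pass the threshold.

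For iron export, CP, the ferroxidase ceruloplasmin, was at 13.5, 13.0 and 14.9 FPKM in parental and 14.4, 38.6 and 33.2 in adapted samples (log2 fold change 0.90, limma adjusted p = 0.0465, lost in 9 alternatives). As for TFRC, adapted replicate 1 was at the parental level. Over all rows, too, this sample was nearer to the parental samples than the other adapted samples were. The part of that in the values of CP and TFRC was not tested. HFE, a partner of the transferrin receptors, fell by 1.08 on the log2 scale (adjusted p = 7.21e-04). It was low, with a mean log2 value of 1.62 in parental and 0.54 in adapted samples. HFE thus passed the filter at a mean of 1 only through the parental group. With 0.1 in place of 1 added before the log, its log2 fold change was -2.03. NEO1 (-0.47, adjusted p = 0.0755) and FURIN (0.066, adjusted p = 0.375) did not pass. Without adapted replicate 1, NEO1 passed (-0.69, adjusted p = 0.0020), and without adapted replicate 2 it was -0.28. For heme iron, HMOX1, which frees iron from heme, was at 5.42, 4.91 and 4.31 FPKM in parental and 12.1, 10.3 and 12.0 in adapted samples (1.09, adjusted p = 1.09e-04). HMOX2, its constitutive form, rose by 0.32 (adjusted p = 0.0456, lost in 8 alternatives), FLVCR1, a transporter once named as a heme exporter, fell by 0.78 (adjusted p = 8.04e-04), and SLC48A1 did not pass (0.20, adjusted p = 0.0568) but did when samples were rescaled to an equal sum (adjusted p = 0.0442).

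The 5 named rows whose values followed NCOA4 most closely over the 6 samples were SLC38A7 (r = 0.9998), C7orf50 (0.9998), SLC7A6 (0.9995), CYR61 (0.9994) and BMF (0.9992). Of the 7564 rows eligible, 343 had r above 0.99, since with 2 groups far apart any row that rose with little spread gives a high r. Among the other genes of iron handling, r with NCOA4 was 0.99 for STEAP3, -0.995 for FTH1 and -0.98 for FBXL5, as a description over the same 6 samples. It was -0.85 for IREB2, 0.72 for FTL, -0.71 for ACO1, -0.67 for TFRC and -0.60 for SLC11A2. SLC40A1 was too low to be eligible.

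**Figure D5:**
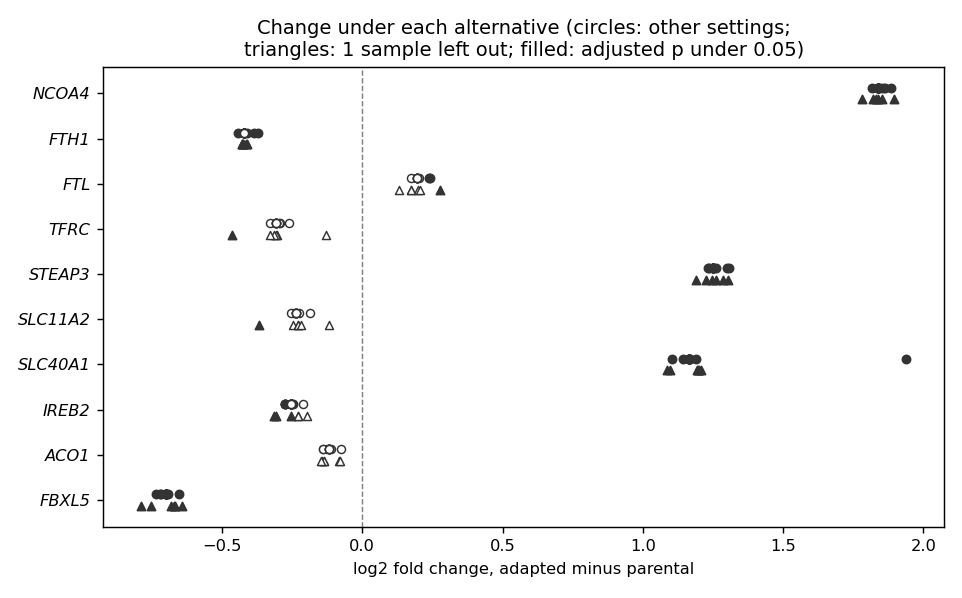
Log2 fold change of each of the 10 genes under the alternatives to the processing; circles are other filters, scalings and fits, triangles leave out 1 sample, and filled symbols have an adjusted p under 0.05. NCOA4, STEAP3, SLC40A1 and FBXL5 are filled throughout, ACO1 is open throughout, and no symbol lies on the other side of 0 from its gene's reported value.

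Leaving out 1 sample at a time, the log2 fold change was between 1.78 and 1.90 for NCOA4, 1.19 and 1.30 for STEAP3, 1.09 and 1.21 for SLC40A1, -0.43 and -0.41 for FTH1 and -0.79 and -0.64 for FBXL5, and each kept its call in all 6 such fits. IREB2 kept it in 3 of the 6.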

How the data were processed

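RNA-sequencing values of 3 parental and 3 adapted samples of H1975 cells were used. The authors deposited 1 table of log2 values, 27216 rows by 6 columns, whose columns were matched to samples by group and replicate number. The submitters' notes list Bowtie2 2.1.0, STAR, edgeR and hg38 without a role, and the quantifier and annotation are not given in the sources used here. Taking 2 to the power of a value, minus 1, gave numbers with 6 decimals in 27069 rows, taken as FPKM. The remaining 147 rows carry a constant in 1 group.

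The authors' methods name DESeq2, which needs counts, so rows with a mean log2 value of at least 1 (12656) were tested with limma 3.58.1 in R 4.3.3 (lmFit, eBayes with a trend, unpaired, two-sided, Benjamini-Hochberg over all rows, threshold 0.05). The fit was tested on simulated data first. The 10 genes and the further lists were chosen with earlier results of these data known. Further genes were named if among the 3 that rose or the 3 that fell most in a list past the threshold without overlap, or in a count of 5 or fewer. A result for 1 listed gene is not reported here. The 5 rows most like NCOA4 were taken from named rows with a mean of at least 3. Alternatives were other filters, pseudocounts, scalings, variance models, row sets, a replicate block and leaving out each sample.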

Additional observations from a re-analysis of the deposited data

How the results depend on the processing

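Over 19 alternatives, 5 of the 10 genes (NCOA4, STEAP3, SLC40A1, FBXL5 and ACO1) stayed on their side of the threshold in every fit that tested them; SLC40A1 was too low for the filter at a mean of 3. Of 189 values of the 10 genes 178 kept their side, 6 lost and 5 gained a call, and none that was called changed sign. The 10 genes gave 4 to 8 calls (4 with no filter, which here left out rows at 0 in all samples, 5 to 8 with 1 sample left out) and the 41 further genes 18 to 26, and 25 of the 41 kept their side throughout. Over all rows, 4532 of 7693 passed with a filter at a mean of 3, and 5763 to 8370 with 1 sample left out, against 7202. Rescaling without mitochondrially encoded genes moved the share of calls that were higher from 54.0% to 59.1% and the median of all rows from 0.028 to 0.070. The cause of these shifts was not tested. TFRC to FTH1 was on average higher in adapted samples, but lower without adapted replicate 1. Deviations from the group means were almost uncorrelated between samples of the same replicate number (-0.051, -0.031 and -0.020). This cannot say whether the samples were paired in the experiment. With the replicate block 6 of the 10 genes, 21 of the 41 and 6761 rows passed. Depth is unknown, which limits what can be said of low genes such as SLC40A1.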

Other observations

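Of the 15 further iron genes too low for the filter, TFR2, a second transferrin receptor, was at 1.51, 1.45 and 1.53 FPKM in parental and 0.779, 0.418 and 0.496 FPKM in adapted samples (log2 fold change -0.68, limma adjusted p = 0.0034 without the filter). TMPRSS6, a protease that lowers hepcidin in the liver, was at 0.221, 0.258 and 0.299 FPKM in parental and 0.657, 1.37 and 0.807 FPKM in adapted samples (0.61, adjusted p = 0.0153 without the filter). FLVCR2 was below 1 FPKM in every sample, between 0.327 and 0.441 in parental and between 0.571 and 0.683 in adapted samples. These genes were named after their values were seen.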
